A study of Brassica oleracea with 15 samples.

Results

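The genes described here are those whose transcripts were more abundant on the elongating side of a bending hypocotyl after both blue light and gravity stimulation. Blue light shone from the side makes the shaded flank elongate more, and laying a seedling on its side makes the bottom flank elongate more. A probe set, the group of oligonucleotides on the array that reads 1 transcript, was chosen by 2 measured conditions: its mean log2 signal over all 15 arrays was at least 8.28, and both the shaded minus lit and the bottom minus top difference were at least 0.5 on the log2 scale. Of the 22746 probe sets that are no Affymetrix controls, 11368 reached that signal and 164 met both differences. Probe sets for WES1, HAT2, AT5G45670, AT2G19880, AT2G39130 and XTH16 were left out by the same rule, which left 158 members. Of these, 80 carry 1 gene symbol in the array's annotation, 2 carry several, and 76 are not listed there and are given by probe set ID.

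All seedlings were wild type Brassica oleracea, 3 days old and grown in the dark. The 5 groups were the shaded and the lit flank after 2 h of blue light from the side, the bottom and the top flank after 2 h of gravity stimulation, and flanks of mock-treated, unstimulated seedlings as control, with 3 arrays each. Each pool came from about 100 seedlings cut lengthwise, with the central vasculature set apart from the flanks, so single seedlings were not measured. None of the 12 vascular and 12 epidermis marker genes matched a tested probe set with 1 symbol, so the labelled tissue could not be checked against them.

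Unequal growth of opposite flanks is what bends a shoot. In the classic account auxin moves sideways to the shaded or lower flank, where it loosens cell walls and changes transcription of its early response genes. Elongating cells also deliver wall polymers and glycosylated proteins through the endoplasmic reticulum and Golgi, and their microtubules guide where cellulose is laid down.

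Signals were read by Arabidopsis probes from Brassica RNA, so a level cannot be set against that of another gene, and the related copies of a gene in Brassica may share a probe set. In such tissue samples, fewer cells of a type and less RNA per cell cannot be told apart. The deposited signals had a trimmed mean of 500 on every array, and the median signal ranged from 332 to 358. The number of arrays limits the precision of all values. Signals below are on the authors' linear scale, and differences are between group means of log2 signal.

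Membership itself used the flank differences, so these are given without a test. The shaded minus lit difference of the members had a median of 0.71 (0.50 to 2.41), and the bottom minus top difference a median of 0.74 (0.50 to 1.73). Just inside the threshold, the calmodulin-like gene AT3G59440 had a shaded minus lit difference of 0.62 and a bottom minus top difference of 0.50. Just outside it, AT2G15870 had differences of 1.00 and 0.499. The members with the lowest mean log2 signal were BZIP60 and ALC, both at 8.28.

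**Figure D1:**
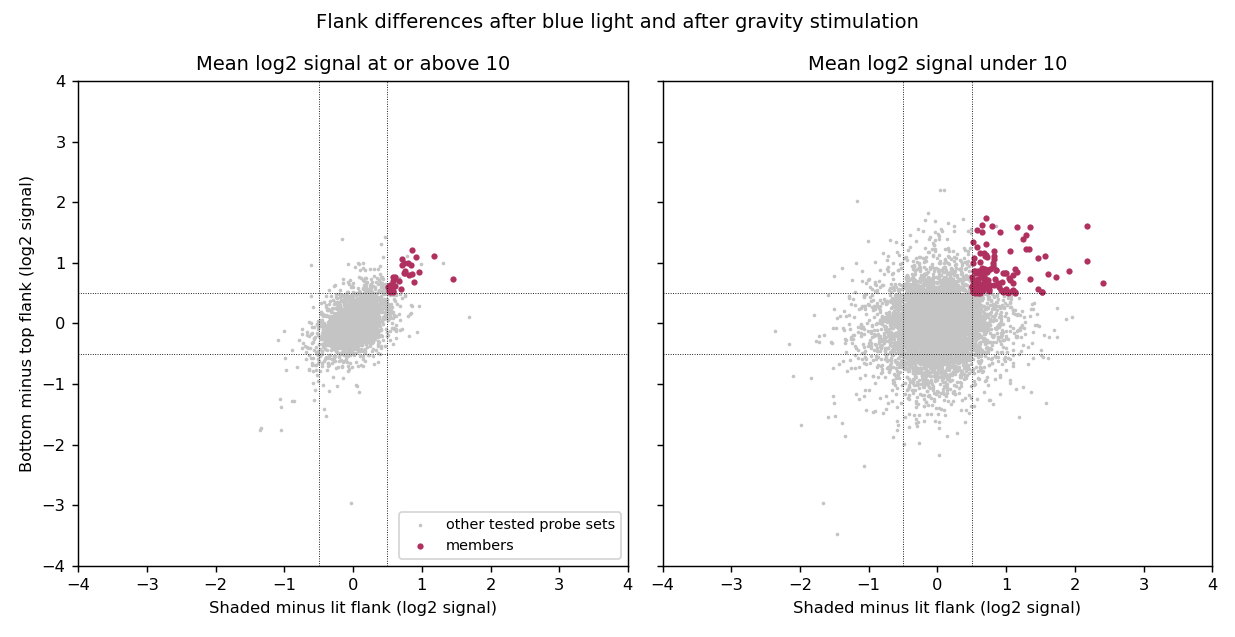
Each point is a tested probe set, with its shaded minus lit difference on the horizontal axis and its bottom minus top difference on the vertical axis (log2 signal, group means of 3 arrays). Members are dark red, dotted lines mark differences of -0.5 and 0.5, and the panels hold the 2865 probe sets with a mean log2 signal at or above 10 and the 8503 under 10. Among the brighter probe sets 67 past the lines changed in the same direction and 1 in opposite directions.

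The plot of flank differences separates bright from dim probe sets. At a mean log2 signal at or above 10, a level chosen after the values were seen, 36 probe sets were higher and 31 lower by at least 0.5 in both elongating flanks, and 1 differed in opposite directions in the 2 stimulations. Under 10, 128 were higher in both and 132 lower in both, and 143 differed in opposite directions. Only 32 members lay at or above 10, where the median residual SD of the members was 0.35, and 126 lay under 10, where it was 0.67. The median residual SD was 0.58 over all members and 0.35 over all tested probe sets. All tested probe sets had 0.25 at or above 10 and 0.39 under 10, so the members had the larger spread at both levels. This was not particular to the members. Over all levels it was 0.61 in the probe sets lower in both elongating flanks. In those higher in shaded and lower in bottom flanks it was 0.77, and in the reverse case 0.71.

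The 3 arrays of the elongating flank lay above the 3 of the opposite flank in both stimulations for 26 of the 158 members, beside 0.748% of all tested probe sets, a comparison on which the choice of members itself rests. Of these 26, 14 lay at or above 10. For 12 members all 6 elongating arrays lay above all 6 opposite arrays (0.369% of all tested), and none of these carries 1 gene symbol. When 1 flank array was left out at a time, 29 members passed the rule in all 12 cases, among them 9 with 1 gene symbol. In a list named after the values were seen, these were BZIP60, AT4G13270, AT3G62450, DECOY, AT1G69570, AT5G27400, AT5G09890, AT4G26480 and AT5G07340. Between 113 members (without top replicate 3) and 140 (without bottom replicate 1) passed again in each case. The lowest of the 6 opposite arrays was lit replicate 3 for 37 members and top replicate 2 for 15, the extremes among the arrays.

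Regulatory genes were among the named members, which are the 20 single-gene members with the largest smaller difference, those past a test and those in a listed pathway. AT1G69570 encodes a transcription factor of the cycling Dof family, known in Arabidopsis from day-length control of flowering. Its signal was 495.0, 535.4 and 631.3 in the shaded flank, against 131.3, 199.1 and 438.9 in the lit flank. It was 720.9, 387.8 and 732.5 in the bottom flank, against 441.6, 170.6 and 215.1 in the top flank, and 561.8, 532.1 and 556.6 in the control. All shaded arrays exceeded all lit arrays, 1 bottom array fell below 1 top array, and the control lay with the elongating flanks. Its shaded minus lit difference was 1.29 and its bottom minus top difference 1.22.

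AT5G09890 encodes a protein kinase of the AGC class. It had signals of 981.5, 1090.5 and 969.3 in the shaded flank, against 815.0, 571.7 and 165.8 in the lit flank. After gravity stimulation it had 1055.9, 1214.3 and 784.3 in the bottom flank, against 226.7, 763.1 and 316.6 in the top flank, with 838.4, 729.7 and 803.6 in the control. The flanks did not overlap in either stimulation, while lit replicate 1 and the lowest bottom array overlapped between the stimulations. The shaded minus lit difference was 1.25 and the bottom minus top difference 1.40. The other regulators named by size had smaller values: AT3G53690, a RING finger protein, with 1.04 and 0.75, and AT4G26480, a KH-domain RNA-binding protein, with 0.72 and 0.86. Both had non-overlapping flanks in each stimulation. Without top replicate 3 the bottom minus top difference was 0.24 for AT3G53690 and 0.55 for AT4G26480.

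BZIP60 is a transcription factor of the unfolded protein response, made active in Arabidopsis when stress in the endoplasmic reticulum triggers splicing of its RNA. Its signal was 652.9, 511.9 and 560.4 in the shaded flank, against 230.5, 349.6 and 211.5 in the lit flank. It was 687.5, 561.9 and 342.2 in the bottom flank, against 335.6, 351.8 and 190.6 in the top flank, and only 167.3, 135.1 and 118.4 in the control. Every flank array exceeded every control array, and the elongating flank was the higher one in both stimulations, with 1 bottom array below 1 top array. The flank differences were 1.15 after blue light and 0.85 after gravity. Its mean log2 signal of 8.28 only just reached the limit of the rule, with the lit, top and control means under that limit.

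AT2G44660 encodes a glucosyltransferase of the ALG6 and ALG8 family, which works on the glycan later moved onto proteins in the endoplasmic reticulum. Its signal was 672.3, 440.3 and 771.0 in the shaded flank, against 294.1, 194.1 and 74.8 in the lit flank. It was 647.2, 859.9 and 412.1 in the bottom flank, against 623.4, 372.6 and 162.0 in the top flank, and 90.1, 403.4 and 377.5 in the control. The light flanks were apart and the gravity flanks overlapped, with differences of 1.91 and 0.87.

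These genes were followed in a list of 33 endoplasmic reticulum folding, stress and glycosylation genes that was drawn up after the members were seen, so its counts support nothing. Of the 9 with a tested probe set, 6 were members and 8 were above 0 in both flank differences, against 27.5% of all tested probe sets. The median elongating minus opposite difference of the 9 was 0.66, against -0.004 for all tested. Besides BZIP60 and AT2G44660, the members were BZIP28, a stress factor held in the membrane until it is needed, AT5G07340, a calnexin that holds unfolded glycoproteins, AT1G76400, the ribophorin I subunit of the transferase that adds the glycan, and GPT, which starts its assembly.

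AT5G07340 had signals of 2823.4, 2627.2 and 1286.4 in the shaded flank, against 1634.8, 923.7 and 996.4 in the lit flank. It had 1973.3, 1727.1 and 2085.1 in the bottom flank, against 1200.7, 1272.0 and 1141.5 in the top flank, with 2273.8, 1627.7 and 2896.8 in the control. The gravity flanks did not overlap, and the control lay at the height of the elongating flanks. The remaining members of this list were noisier. BZIP28 averaged 580.0 ± 416 in the shaded flank and 371.8 ± 244 in the lit flank, and after gravity stimulation 653.4 ± 287 in the bottom flank, against 424.2 ± 147 in the top one (SD, n = 3 each). AT1G76400 had flank differences of 0.67 and 0.65, and GPT had 0.52 and 1.35. Relatives of members were not higher in the same way: BZIP17, also membrane-held, had differences of -0.06 and -0.08, and AT2G01720, the other ribophorin I gene, had 0.11 and 0.11. AT5G38460, listed as ALG6 and so of the family of AT2G44660, had 0.01 and 0.06.

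**Figure D2:**
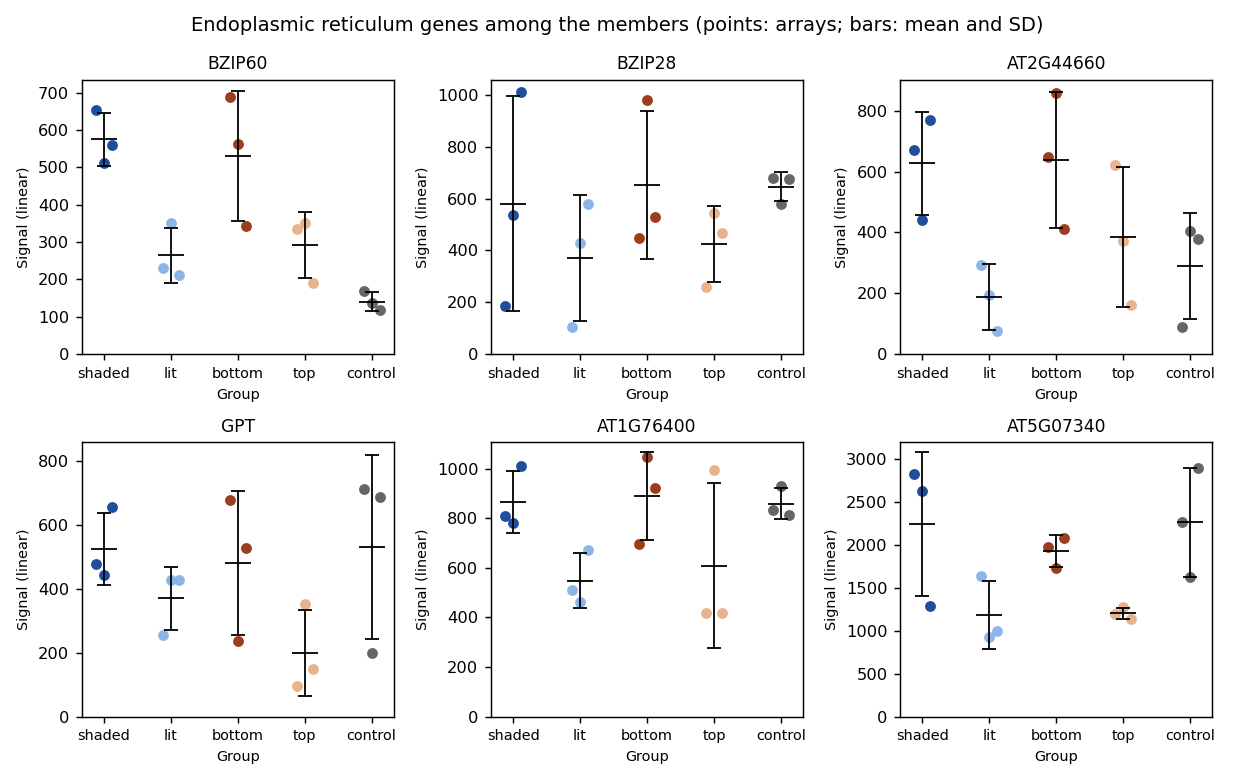
Linear signal of 6 members that work in the endoplasmic reticulum, in each of the 5 groups, with points for arrays and bars for mean and SD (n = 3 each). The shaded mean exceeds the lit mean and the bottom mean the top mean in all 6 panels, as the rule requires, and BZIP60 alone has its control arrays below every flank array.

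Enzymes and proteins of other kinds made up the rest of the named members. AT3G62450 had 350.3, 521.3 and 433.1 in the shaded flank, against 73.5, 502.5 and 148.6 in the lit flank, and 621.5, 609.6 and 550.4 in the bottom flank, against 68.2, 397.1 and 375.9 in the top flank. The control arrays read 327.9, 593.2 and 461.2. The lit flank held 2 very low arrays and the top flank 1, the light flanks overlapped, and the differences were 1.28 and 1.45. AT1G15140, an oxidoreductase with flavin and nicotinamide binding folds, had 389.4, 462.4 and 546.0 in the shaded flank, against 279.0, 281.4 and 60.0 in the lit flank. Its gravity values were 685.1, 450.1 and 540.7 in the bottom flank, against 83.0, 484.2 and 444.0 in the top flank, and its control values 363.1, 401.4 and 493.5. A single low array thus stood out in each opposite flank.

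AT4G29520 had 420.9, 441.6 and 387.0 in the shaded flank, against 253.0, 358.3 and 72.2 in the lit flank. It had 521.1, 904.7 and 594.1 in the bottom flank, against 299.1, 403.7 and 84.4 in the top flank, and 356.0, 203.6 and 374.2 in the control. Neither pair of flanks overlapped, and the differences were 1.15 and 1.59, the first being 0.47 without lit replicate 3. AT1G26460, a pentatricopeptide repeat protein of the kind that acts on organelle RNA, had differences of 0.84 and 0.88, with shaded arrays from 159.5 to 820.8 and lit arrays from 114.0 to 331.2. The plastid ATP synthase subunit gene atpI had 0.75 and 0.83 with a residual SD of 0.81, larger than the shaded minus lit difference.

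SETH3, a sugar isomerase-domain protein, averaged 2586 ± 316 in the shaded flank and 1573 ± 416 in the lit flank, and 2523 ± 224 in the bottom flank, against 1583 ± 842 in the top one (SD, n = 3 each). AT3G60340, of the palmitoyl thioesterase family, averaged 1621 ± 160 in the shaded flank and 951.3 ± 255 in the lit flank, and 1756 ± 155 in the bottom flank, against 1159 ± 781 in the top one. The top flank held 1 array at 264.0, beside 1698.5 and 1515.2, and without it the bottom minus top difference was 0.13 in place of 0.99. AN, known in Arabidopsis as ANGUSTIFOLIA for its part in microtubule arrangement and leaf cell shape, had differences of 0.79 and 1.60, with top arrays of 171.0, 625.4 and 61.1. AT1G14940, of the major latex protein family, had 0.81 and 0.96, and AT1G69860, of the nitrate and peptide transporter family, had 0.76 and 0.89. Their residual SDs of 0.98 and 1.04 exceeded all 4 differences, and without top replicate 3 their bottom minus top differences were -0.11 and 0.11. AT4G09630 had 0.82 and 1.19, and without top replicate 1 its bottom minus top difference was 0.10. AT4G13270 had 0.82 and 1.06, and AT1G76240 had 0.74 and 0.88, the last being 0.30 without top replicate 3.

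Single arrays carried many of these differences. For 16 of the 22 named members, 1 of the 2 flank differences or both dropped under 0.5 when a single array was left out. The 6 that kept both at 0.5 or more were AT3G62450, AT5G09890, AT1G69570, BZIP60, AT4G13270 and AT4G26480. The combined flank difference of 7 moved by over 1.5 times. These were AT4G09630 (0.46 without top replicate 1), AT3G60340 (0.46 without top replicate 2), and 5 genes without top replicate 3: AT1G14940 (0.35), AN (0.80), AT1G69860 (0.44), atpI (0.46) and AT1G76240 (0.52). Without its lowest opposite array, top replicate 1, AT1G15140 had a bottom minus top difference of 0.25. AT2G44660 had 0.34 without top replicate 3.

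**Figure D3:**
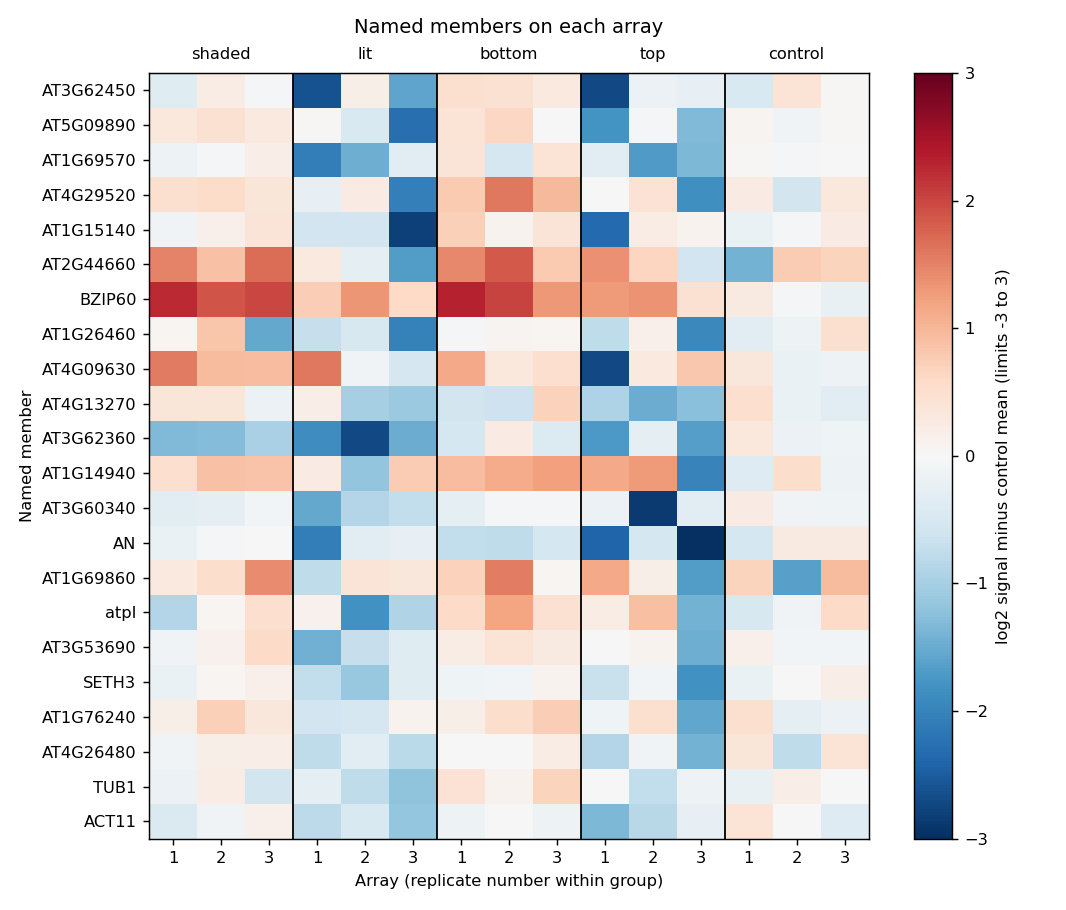
Heat map of the 22 named members (rows) on the 15 arrays (columns, by group), coloured by log2 signal minus the control mean of that gene, on a scale limited to -3 and 3. Lit and top arrays are mostly blue, single very low arrays appear in many rows, and BZIP60 is red in every flank array.

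Cytoskeleton genes formed the best covered of the pathway lists. TUB1, a beta-tubulin, had 1850.9, 2430.3 and 1424.1 in the shaded flank, against 1722.2, 1220.3 and 901.9 in the lit flank. It had 2809.3, 2247.8 and 3292.7 in the bottom flank, against 2078.0, 1240.7 and 1880.4 in the top flank, and 1800.3, 2403.9 and 2093.5 in the control. The gravity flanks did not overlap and the light flanks did. ACT11, an actin, had 1314.7, 1644.3 and 1987.6 in the shaded flank, against 1030.5, 1288.7 and 795.4 in the lit flank. It had 1594.3, 1767.6 and 1605.6 in the bottom flank, against 704.0, 1005.8 and 1506.5 in the top flank, and 2351.1, 1753.7 and 1362.8 in the control. Both pairs of its flanks were apart, with differences of 0.67 and 0.69.

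Of the 8 tested tubulin and actin genes, 6 were above 0 in both flank differences and 1 (TUA1) was below 0 in both, against 27.5% and 28.6% of all tested probe sets. Their median elongating minus opposite difference was 0.23. TUB1 and ACT11 are among the 6 by the rule, which used the same differences, so nothing is read from these counts. TUB7, no member, was the only 1 of the 8 past the threshold in a tested comparison, the blue light minus gravity one (limma, adjusted p = 0.034). The other pathway lists matched tested probe sets with 1 symbol barely or not at all. No auxin, brassinosteroid, water channel or photoreceptor gene of the lists had such a match. Of the 54 auxin genes, 3 matched a probe set with 1 symbol, and these were not among the tested ones. Probe sets that the annotation does not list may read genes of these lists, so their flank differences are not known. Of the wall genes only COB, which orients cellulose, was matched to a tested probe set, with differences of 0.22 and 0.46. The gibberellin receptor GID1C had -0.07 and -0.39, and the ethylene factor EIN3 had 0.24 and -0.08. None of these 3 was a member.

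The control had no part in the flank differences of the rule and entered it only through the mean log2 signal over all arrays. The control shows on which side of the unstimulated level the flanks lay. In the median member the shaded flank stood at 0.14 and the lit flank at -0.65 relative to the control, the bottom flank at 0.26 and the top one at -0.53. These 4 values share the control arrays and contain the flank differences of the rule, so they are descriptions. Median log2 signals of the members on single arrays were 9.39, 9.28 and 9.26 in the shaded flank and 8.54, 8.68 and 8.73 in the lit flank. Bottom arrays had 9.35, 9.49 and 9.37, top arrays 8.73, 8.94 and 8.55, and control arrays 9.27, 8.98 and 9.13. All 3 control medians lay above every opposite array, and 2 of them below every elongating array.

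For the 32 members at or above 10, the lit flank was below the control in all 32 and the top flank in 31. Their median difference from the control was -0.09 in the shaded flank and -0.79 in the lit flank, while bottom flanks had 0.11 and top flanks -0.56. All 6 opposite arrays lay below all 3 control arrays for 23 of the 158 members, beside 3.51% of all tested probe sets. All 6 elongating arrays lay above all control arrays for 11 members, beside 1.47%, and below all control arrays for 2, beside 2.42%. The rule asked for low opposite and high elongating arrays, so nothing is read from these shares.

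**Figure D4:**
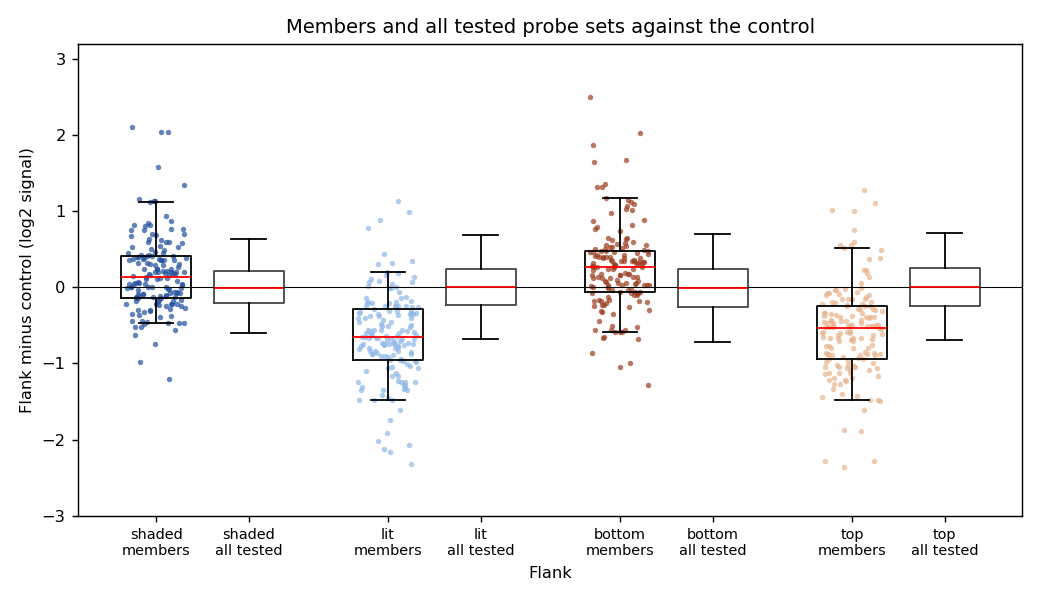
Difference of each flank from the control (log2 signal, group means of 3 arrays) for the 158 members (points and left boxes) and for all 11368 tested probe sets (right boxes). Boxes span the quartiles with the median in red and whiskers from the 5th to the 95th percentile. Member medians are 0.14 for shaded, -0.65 for lit, 0.26 for bottom and -0.53 for top.

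The mean of the 4 flanks minus the control has, under equal spread, an error unrelated to the 2 differences the rule used. It was below 0 in 116 of 158 members (73.4%), against 51.8% of all tested probe sets. The median was -0.25 in the members and -0.01 in all tested. The blue light flanks alone were below the control in 110 members, beside 50.5% of all tested, and the gravity flanks alone in 105, beside 51.0%. Among the members at or above 10 it was below 0 in 27 of 32, against 59.7% of all tested probe sets at that level. Of the 163 probe sets that were lower in both elongating flanks, 80 were below 0, with 8 of 31 at or above 10 and 72 of 132 under 10. Probe sets that differed in opposite directions also leaned below 0. These were 46 of the 79 higher in shaded and lower in bottom flanks (median -0.15). Of the 65 lower in shaded and higher in bottom flanks, 43 were below 0 (median -0.20). Without control replicate 1 the median of the members was -0.20. A very low single array in the lit or top flank lowers the mean of the 4 flanks and raises the flank difference together. The part of such arrays in these counts was not tested. For the array's quality control transcripts, the 3′ minus 5′ log2 signal averaged -0.29 ± 0.18 in the shaded, -0.34 ± 0.14 in the lit, -0.14 ± 0.11 in bottom flanks and -0.21 ± 0.12 in top flanks, against 0.06 ± 0.30 in the control (SD, n = 3 arrays each). Without control replicate 1, which stood at 0.40, the control mean was -0.11. That is above all 4 flank means and inside the range of single flank arrays (-0.50 to -0.05). The part of this measure in the differences from the control was not tested.

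Few members passed the test against the control in limma's moderated test with Benjamini-Hochberg adjustment over all 11368 probe sets, at 0.05. In the mean of the 4 flanks, 1 member was higher than the control, beside 0.211% of all tested, and 2 were lower, beside 0.176%. At an unadjusted p under 0.05, 4 were higher, beside 5.24%, and 19 lower, beside 5.35%. The higher one after adjustment, 248163_at, has signals of 980.6, 1253.9 and 699.9 in the shaded flank, against 382.1, 406.4 and 352.2 in the lit flank. It has 1063.7, 1254.6 and 1463.8 in the bottom flank, against 504.8, 447.5 and 677.4 in the top flank, and 162.4, 138.1 and 476.2 in the control. All elongating arrays lie above all others, and the control is lowest except for 1 array. This mean minus the control was 1.67 (SE 0.29, adjusted p = 0.019), and 1.89 for the gravity flanks alone (adjusted p = 0.0092). Without control replicate 1 the adjusted p was 0.130 and 0.0607, and without control replicate 2 it was 0.157 and 0.0741. With no intensity trend the first was 0.0557, which misses the threshold.

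Among the lower ones, 265066_at has 11177.4, 9528.0 and 8944.6 in the shaded flank, against 6791.4, 6034.7 and 5058.5 in the lit flank. It has 4413.1, 3873.2 and 6103.7 in the bottom flank, against 1723.7, 2442.0 and 3137.7 in the top flank, and 12739.6, 10158.8 and 11597.5 in the control. The gravity flanks lie far below the control and the top flank is the lowest. The 4 flanks averaged -1.18 (SE 0.17, adjusted p = 0.0052), and the gravity flanks -1.78 (adjusted p = 9.1e-05). The first was lost without control replicate 1 (adjusted p = 0.0522), and the second was kept without any 1 array.

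The other lower one, 257202_at, has 4387.6, 4866.6 and 5875.1 in the shaded flank, against 3831.9, 2564.1 and 2874.8 in the lit flank. It has 7623.8, 6315.5 and 8287.3 in the bottom flank, against 3242.6, 3701.7 and 3671.3 in the top flank, and 8192.4, 6526.9 and 6927.3 in the control. The bottom flank matches the control in level and the other flanks lie below it. The 4 flanks averaged -0.69 (SE 0.14, adjusted p = 0.038), and the call was lost when 1 of 10 arrays was left out, with an adjusted p up to 0.235 (without control replicate 1). It was kept without shaded replicate 1 or 3, lit replicate 1, bottom replicate 3 or top replicate 2. It was also lost with quantile normalization (adjusted p = 0.0664), with no filter (0.0662) and with no intensity trend (0.141). The count of members called in this comparison was 0 without control replicate 1, 1 without control replicate 2 and 5 without top replicate 2.

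For blue light against the control, 0 members were higher, beside 0.088% of all tested probe sets, and 2 were lower, beside 0.132%. At an unadjusted p under 0.05 there were 3 higher, beside 4.79%, and 23 lower, beside 5.51%. AT3G62360, which encodes a protein with a carbohydrate-binding-like fold, was lower, at -1.61 (adjusted p = 0.048). Its signal was 636.4, 648.1 and 819.0 in the shaded flank and 441.6, 246.0 and 571.5 in the lit flank, against 1991.9, 1405.1 and 1460.4 in the control. After gravity it was 1103.4, 1905.9 and 1196.5 in the bottom flank, against 482.3, 1305.7 and 504.8 in the top one. All 6 light-treated arrays lay below all control arrays. The call was kept only when lit replicate 3 or 1 of the 3 top arrays was left out, and was lost in the other 11 cases, with an adjusted p up to 0.216 (without control replicate 1). The other was 257202_at, at -0.88 (adjusted p = 0.029), lost without shaded replicate 1 (0.0505), shaded replicate 2 (0.0531), control replicate 1 (0.165) or control replicate 2 (0.0656). Both calls were lost in each of those 4 cases.

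For gravity against the control, 1 member was higher, 248163_at, beside 0.369% of all tested probe sets, and 2 were lower, beside 0.361%. At an unadjusted p under 0.05 there were 7 higher, beside 6.01%, and 16 lower, beside 6.55%. The lower ones after adjustment were 265066_at and 247743_at, which changed by -1.27 (adjusted p = 0.041) and lost the call when 1 of 10 arrays was left out (up to 0.208, without control replicate 1). It was kept without shaded replicate 1 or 3, lit replicate 1 or 2 or top replicate 2. It was also lost with quantile normalization (0.0623), with no filter (0.0792) and with no intensity trend (0.0998). Leaving out top replicate 2 brought the gravity count to 6 calls, and leaving out control replicate 1 or 2 brought it to 1. BZIP60 missed the threshold: the 4 flanks minus the control was 1.46 (SE 0.32, limma adjusted p = 0.057), with 1.47 for blue light (0.092) and 1.45 for gravity (0.063). It was higher in 12 of 12 flank arrays. BZIP60 reached the signal limit of 8.28 only through its shaded and bottom arrays, so nothing is read from these values.

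The light and gravity flanks of a member can also be set against each other, without the control. The blue light minus gravity difference was higher past the threshold in 1 member, beside 1.0% of all tested, and lower in 3, beside 1.22%. At an unadjusted p under 0.05, 11 were higher, beside 7.65%, and 18 lower, beside 7.87%. The higher one was 265066_at at 1.19 (adjusted p = 0.00054). The lower ones were 250254_at at -0.84 (adjusted p = 0.0081), 250939_at at -1.11 (0.028) and 247588_at at -1.10 (0.037). The calls for 265066_at and 250254_at were kept without any 1 array. The call for 250939_at was lost without shaded replicate 1 or 3, bottom replicate 2 or 3 or top replicate 2 (up to 0.0755), and that for 247588_at without any shaded or top array, bottom replicate 2 or 3 or control replicate 2 (up to 0.0858). Over all members the median difference was -0.08, with 95 of 158 below 0, beside 48.8% of all tested.

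Of the 12 members with all 6 elongating arrays above all 6 opposite arrays, 11 are not listed in the annotation, and those given here were picked after their values were seen. The first, 254001_at, has 1306.4, 984.8 and 2201.2 in the shaded flank, against 234.5, 194.5 and 671.6 in the lit flank. It has 1242.2, 1818.2 and 1578.5 in the bottom flank, against 521.0, 583.5 and 415.5 in the top flank, and 1637.9, 1230.4 and 1374.6 in the control. All elongating and control arrays lie above all opposite arrays, with flank differences of 2.18 and 1.61. Another such member, 249337_at, has 1810.5, 1415.4 and 2493.1 in the shaded flank, against 825.3, 544.7 and 1228.0 in the lit flank. It has 1388.2, 2019.5 and 2230.1 in the bottom flank, against 569.8, 1113.4 and 987.2 in the top flank, and 2394.8, 1754.8 and 1755.3 in the control. There too the control arrays lie with the elongating ones. Only 3 members had all 6 elongating arrays above all opposite and control arrays (0.0704% of all tested): 248163_at, 251149_at and 266101_at.

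**Figure D5:**
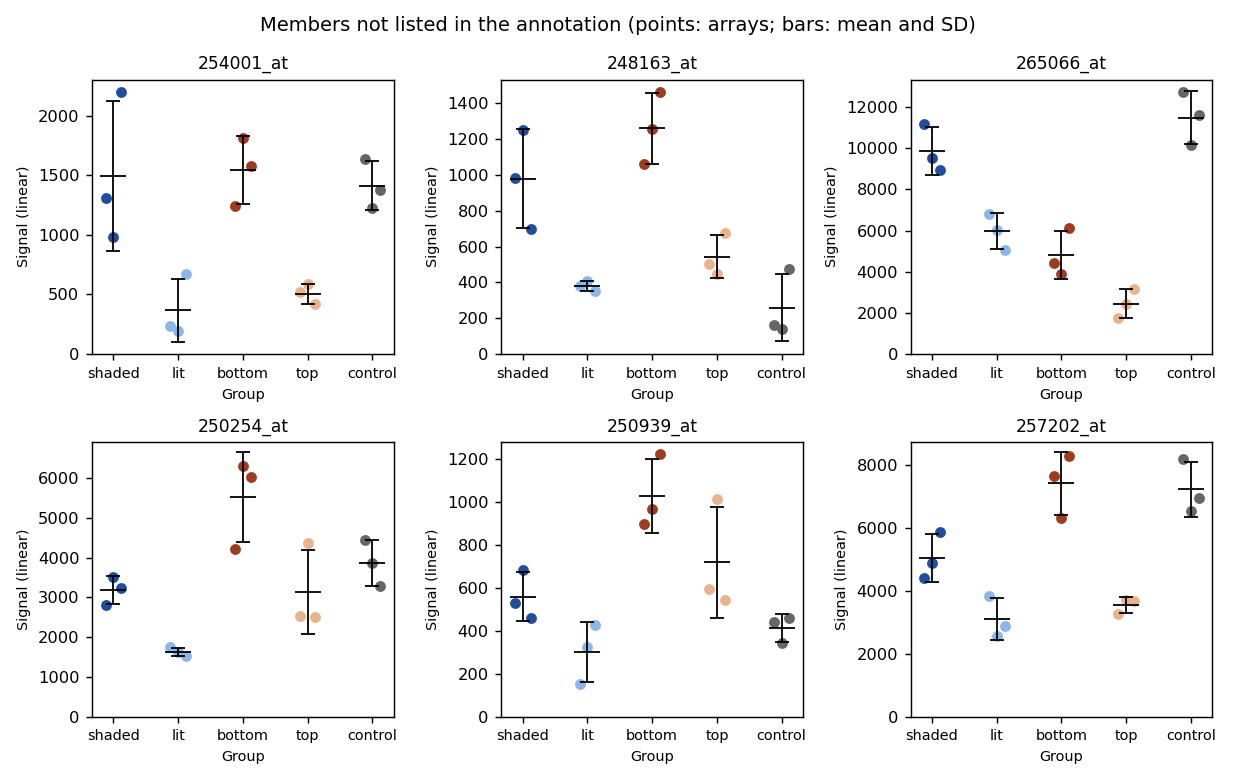
Linear signal of 6 members without a listed gene in each of the 5 groups, with points for arrays and bars for mean and SD (n = 3 each). In 254001_at the control lies with the elongating flanks, in 248163_at it is low, and in 265066_at it lies above both gravity flanks.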

How the data were processed

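Signals are linear intensity values per probe set, made by the authors with GCOS 3.0 per the submitters' processing notes, with every array deposited at a trimmed mean of 500. The sources used here do not give its settings. Groups follow the sample titles. The extraction text of the lit arrays names only shaded flanks as collected, and that of the bottom arrays names top and shaded flanks. The labels call the samples biological, and nothing ties replicate numbers together. Same-numbered arrays of different groups did not deviate together (median correlation 8.9e-05 over 30 pairs).

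Affymetrix controls (64) were dropped, 1 value at or below 0 was set to 0.4, and the authors' signals were turned into log2 values. For the 11368 tested probe sets, limma 3.58.1 (R 4.3.3; eBayes, intensity trend) estimated 5 group means from the 15 arrays, leaving 10 residual degrees of freedom. Each comparison's p values were adjusted by Benjamini-Hochberg and called at 0.05. The fit was tested on simulated data. Members, lists and level limits were chosen with earlier results of these data known. Differences the rule used, and each flank against the control, were not tested. The 4 tested comparisons are blue light flanks minus control, gravity flanks minus control, all 4 flanks minus control, and blue light minus gravity flanks. Under equal spread they are uncorrelated with the flank differences the rule used, but not with each flank against the control. Named are the 20 single-gene members with the largest smaller flank difference, single-gene members past a test, in a pathway list, or with all 6 elongating arrays above all opposite and control arrays. The pathway lists cover auxin, wall enzymes, water channels and proton pumps, brassinosteroid, gibberellin, ethylene, photoreceptor and gravity signalling, tubulin and actin, with vascular and epidermis markers. Others given are stated to be chosen after their values were seen. Alternatives changed the normalization, filter, variance model, offset, replicate block and difference asked, and left out each array. Arabidopsis promoters and proteins were not used here.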

Additional observations from a re-analysis of the deposited data

Results flagged for a closer look

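For 4 of the 158 members, beside 1.0% of all tested probe sets higher and 1.22% lower, the distance from the control differed between the stimulations, tested as blue light flanks minus gravity flanks on the log2 scale in limma. For 265066_at the difference was 1.19 (adjusted p = 0.00054), with mean signals of 9883 (shaded) and 5962 (lit), against 4797 (bottom) and 2434 (top). For 250254_at it was -0.84 (adjusted p = 0.0081), with 3183 (shaded) and 1628 (lit), against 5515 (bottom) and 3135 (top). For 250939_at it was -1.11 (adjusted p = 0.028), and for 247588_at it was -1.10 (adjusted p = 0.037). Leaving out 1 of 5 arrays ended the call for 250939_at and 1 of 9 that for 247588_at. A count of 4 is near the share over all tested probe sets, and none of these members has a listed gene.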

How the results depend on the processing

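No called value, member median or combined flank difference of a named member changed sign under any alternative. Of the single flank differences of the named members, the bottom minus top one of AT1G14940 did, at -0.11 without top replicate 3. All 471 values of the 22 named members' combined flank differences moved by less than 1 residual SD, itself near 1 for several. Leaving out 1 array cannot move them that far, because the SD comes from the same arrays, so nothing is read from this count. The combined differences of 7 moved by over 1.5 times without 1 array. Membership depended on the settings: beside 158, there were 909 with no filter, 56 among the brightest 30% of probe sets, 289 at a difference of 0.4, 89 at 0.6, 164 after quantile normalization and 114 with log2(signal + 50). Leaving out 1 flank array gave 160 to 190. Probe sets at or above 10 that differed in the same direction numbered 126 at 0.4 and 34 at 0.6, and those in opposite directions 3 at 0.4 and 1 to 3 with an array left out. Under 10, the same direction gave 469 at 0.4 and 148 at 0.6, and opposite directions gave 289 and 78. Of members called for blue light against the control (2), 1 was left with no filter, 0 with no intensity trend and 1 with the replicate number as a block, and 0 to 3 without 1 array. For gravity against the control (3) leaving out 1 array gave 1 to 6, for all 4 flanks against the control (3) 0 to 5, and for blue light against gravity flanks (4) 2 to 4. The last count was 2 with no filter and 2 with no intensity trend. With the replicate block the counts for gravity, all 4 flanks and blue light against gravity stayed at 3, 3 and 4, and the same-numbered arrays share only a number. Single calls lost beyond these counts are, with no intensity trend, 248163_at (all 4 flanks, adjusted p = 0.0557), 257202_at (all 4 flanks, 0.141) and 247743_at (gravity, 0.0998), and for 257202_at and 247743_at also with quantile normalization and with no filter. The cause of these changes was not tested.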
